A study of Mus musculus with 64 samples.

Results

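The blood-testis barrier junction genes described here were Cldn3, Cldn5, Cldn11, Ocln, Tjp1, Gja1, Cdh2, F11r and Jam2, which made 9 of the 26385 genes in the deposited tables. They were picked by gene symbol as known parts of the junctions of the barrier and not by a measured value, though earlier results of these data were known. All 9 were detected in whole testis, and all 9 passed the filter on low counts in each whole testis comparison. In the comparison of mutant and control sorted germ cells, 8 of the 9 passed it and Cldn5 did not.

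The study asked how the loss of MORC1, a nuclear protein of male germ cells, changes gene and transposon expression, and set it beside the loss of DNMT3L, a cofactor of de novo DNA methylation, and of MIWI2, a nuclear protein of the piRNA pathway. The 27 whole testis libraries came from the Morc1 line (14), the Dnmt3l line (9) and the Miwi2 line (4), each from 1 mouse. A further 20 libraries came from germ cells sorted from Morc1 testes and served as a contrast here.

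The Morc1 mutant allele, tg, is an insertion of a tyrosinase transgene that removed exons 2 to 4 of Morc1, and the line was kept on FVB/N. Named by postnatal day, the P10.5 set held 3 Morc1 tg/tg testes (labelled KO), 2 Morc1 tg/+ testes (labelled het) and 1 wild type (WT) testis, and the last 3 formed the controls. The P14.5 set held 3 testes of Morc1 tg/tg and 3 of Morc1 tg/+ mice. A further Morc1 tg/+ and a further WT library of P10.5, labelled preliminary, were left out of the standard tests. Both WT libraries of this line are labelled replicate 1, and the labels do not say whether they share a mouse. Added with a batch term, the preliminary libraries gave the same number of calls among the 9 genes at P10.5, 2, both upward. The Dnmt3l line had 3 Dnmt3l-/- testes against 3 Dnmt3l+/- and 3 WT testes, and the Miwi2 line had 2 testes labelled KO against 2 labelled het, all at P10.5. No source used here gives the strain of the Dnmt3l and Miwi2 mice. Germ cells of E16.5 to P2.5 were sorted on eGFP from Morc1 tg mice crossed to an Oct4-IRES-eGfp reporter of mixed background. Those of P10.5 were sorted as side scatter low, EPCAM high and MHC class I negative cells. Sorted libraries of Morc1 tg/+ and Morc1 tg/tg mice numbered 2 and 2 at E16.5 and 2 and 2 at E18.5. They numbered 3 and 2 at P2.5, and 4 and 3 at P10.5.

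As background, the blood-testis barrier is built by neighbouring Sertoli cells, the somatic nurse cells of the seminiferous tubule, and it closes during the first wave of spermatogenesis. Claudins and occludin form the strands of its tight junctions, junctional adhesion molecules stand beside them, zonula occludens proteins tie both to actin, and N-cadherin and connexin 43 supply adherens and gap junctions in the same membrane. Meiotic germ cells pass through the barrier as its junctions are taken apart and rebuilt.

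Depth, as reads counted on genes, was 22509570 to 42137954 per whole testis library (median 28815956) and 2413679 to 14918478 per sorted library (median 7542692). The targeted gene was checked first. In Morc1 tg/tg testes, the Morc1 level was 2.41, 2.06 and 2.32 RPKM (reads scaled to exon length and to the mapped reads of the library) at P10.5, against 6.29 to 10.2 RPKM in controls. Dnmt3l stood at 0.0402, 0.037 and 0.0464 RPKM in Dnmt3l-/- testes against 0.374 to 1.02 RPKM in their controls. Piwil4, the gene of MIWI2, was higher in the libraries labelled Miwi2 KO (10.7 and 11.5 RPKM) than in those labelled het (6.65 and 7.01 RPKM), so this label was not borne out by the gene's reads (no source used here says which part of Piwil4 the allele removes), and the libraries are called "labelled Miwi2 KO" throughout. No 2 libraries of a group were close enough to be copies (lowest chi-square per gene 4.155 over 38 pairs).

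Positions are given in mm9, the build of the counts. Cldn5 (chr16:18776940-18778353, + strand) and Jam2 (chr16:84774368-84826173, + strand) share chromosome 16 with Morc1, 29.7 and 36.3 Mb from it, and Gja1 (chr10:56097106-56110225, + strand) lies 21.4 Mb from Dnmt3l. The others shown are Cldn3 (chr5:135462084-135463342, + strand), Cldn11 (chr3:31048868-31063246, + strand), Ocln (chr13:101266462-101322673, - strand), Tjp1 (chr7:72441051-72516125, - strand) and F11r (chr1:173367666-173394734, + strand). Cldn3 overlaps Wbscr25 on the opposite strand (mean 0.0299 RPKM in testis) and Jam2 overlaps a 5S ribosomal RNA copy on the same strand (mean 0.564 RPKM), both far below the levels of Cldn3 and Jam2.

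Promoter sequence is shown for Gja1, Ocln and F11r, all called higher in Dnmt3l-/- testes and in Morc1 tg/tg testes of P14.5 below, and for Cldn11, as the 250 bases that end just before the annotated start of transcription (RefSeq, build GRCm38.p6, a later build than mm9). RefSeq windows were matched for 7 of the 9 genes, Jam2 and Cdh2 being the others. The first, for Gja1, is chr10:56377050-56377299 (+ strand). That of F11r is chr1:171437311-171437560 (+ strand), and the first annotated start of Ocln has chr13:100552719-100552968 (- strand). Cldn11, which was not called in the Dnmt3l line, has chr3:31149670-31149919 (+ strand). Each is written 5′ to 3′ on the strand of the gene, and capitals mark matches, on either strand, to the AP-1 motif TGAGTCA, the GC box GGGCGG or the CCAAT box CCAAT.
Gja1: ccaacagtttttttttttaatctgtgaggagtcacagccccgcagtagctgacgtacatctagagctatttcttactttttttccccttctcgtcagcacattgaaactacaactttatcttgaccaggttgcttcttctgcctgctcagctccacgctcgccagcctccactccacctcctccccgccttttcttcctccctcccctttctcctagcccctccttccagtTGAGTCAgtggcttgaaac
F11r: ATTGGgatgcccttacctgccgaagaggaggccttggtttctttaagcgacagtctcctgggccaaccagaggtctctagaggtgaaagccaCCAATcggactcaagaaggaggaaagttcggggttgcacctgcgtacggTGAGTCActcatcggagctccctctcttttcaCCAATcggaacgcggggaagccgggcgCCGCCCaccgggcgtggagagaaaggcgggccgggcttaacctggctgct
Ocln: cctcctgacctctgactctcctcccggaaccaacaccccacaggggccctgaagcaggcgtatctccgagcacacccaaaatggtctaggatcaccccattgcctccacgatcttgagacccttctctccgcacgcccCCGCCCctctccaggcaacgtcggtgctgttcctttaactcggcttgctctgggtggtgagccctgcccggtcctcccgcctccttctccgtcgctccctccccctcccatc
Cldn11: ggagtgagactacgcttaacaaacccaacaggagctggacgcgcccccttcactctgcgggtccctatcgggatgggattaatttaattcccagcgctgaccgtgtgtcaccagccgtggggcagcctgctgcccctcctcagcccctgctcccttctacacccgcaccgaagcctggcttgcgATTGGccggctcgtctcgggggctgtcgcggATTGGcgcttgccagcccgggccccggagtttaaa

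The AP-1 letters stood 19 bases before the start in Gja1 and 109 bases before it in F11r, 2 of the 7 genes, while 4.46% of the 32851 RefSeq windows of this length held them. A GC box was found in Cldn3, Cldn5, Ocln, Tjp1 and F11r, 5 of the 7 genes, and in 32.7% of all windows. CCAAT was found in F11r (3 times), in Cldn5 and Cldn11 (2 times each) and at the other annotated start of Ocln (1 time), and in 33.8% of all windows. The TATA letters TATAAA were in none of the 7 genes' windows and in 12.4% of all. These are matches of letters only. The 7 genes are counted by gene, with 2 windows for Ocln, whereas the percentages count single windows. The motifs overlapped none of the others in these windows, and they were chosen after the sequences had been seen.

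In control testis, the 9 genes spanned a wide range of levels per length of exon. Cldn11, the claudin of Sertoli cell tight junctions, was the most abundant at 265 ± 11.4 RPKM (SD, n = 3) in the Morc1 controls of P10.5. Gja1, which encodes the gap junction protein connexin 43, followed at 194 ± 7.45 RPKM, and F11r, which encodes JAM-A, at 123 ± 5.67 RPKM. Each of these 3 stood apart from the next in every library.

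The middle of the order held pairs that could not be separated. Jam2, which encodes JAM-B, was at 40.1 ± 2.88 RPKM and Tjp1, which encodes the scaffold ZO-1, at 38.9 ± 2.96 RPKM, with overlapping libraries. Cdh2, which encodes N-cadherin, was at 22.3 ± 1.35 RPKM and Ocln, which encodes occludin, at 20.8 ± 0.959 RPKM, and these overlapped too. Cldn5, a claudin of both endothelium and Sertoli cells, was lower at 6.13 ± 1.03 RPKM, and Cldn3 was the lowest of the 9 at 0.646 ± 0.0454 RPKM.

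Across all 27 testis libraries, Cldn3 had the widest spread, with its highest library 17.4 times its lowest. Gja1 came next at 3.76 times and Cldn11 at 2.65 times, and the other 6 genes kept within 1.98 to 2.09 times. By mean level, Ocln was above Cdh2 in the Miwi2 het libraries (15.8 against 13.6 RPKM), and Tjp1 was above Jam2 in Morc1 tg/+ at P14.5 (37.3 against 30.6 RPKM), the reverse of the order above. In the controls of the Dnmt3l line, Cldn5 and Cldn3 overlapped, and in the Miwi2 het libraries and in the Morc1 tg/+ libraries of P14.5 Gja1 overlapped with F11r. Levels were not tested between lines, since mice, litters and libraries differed together.

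**Figure D1:**
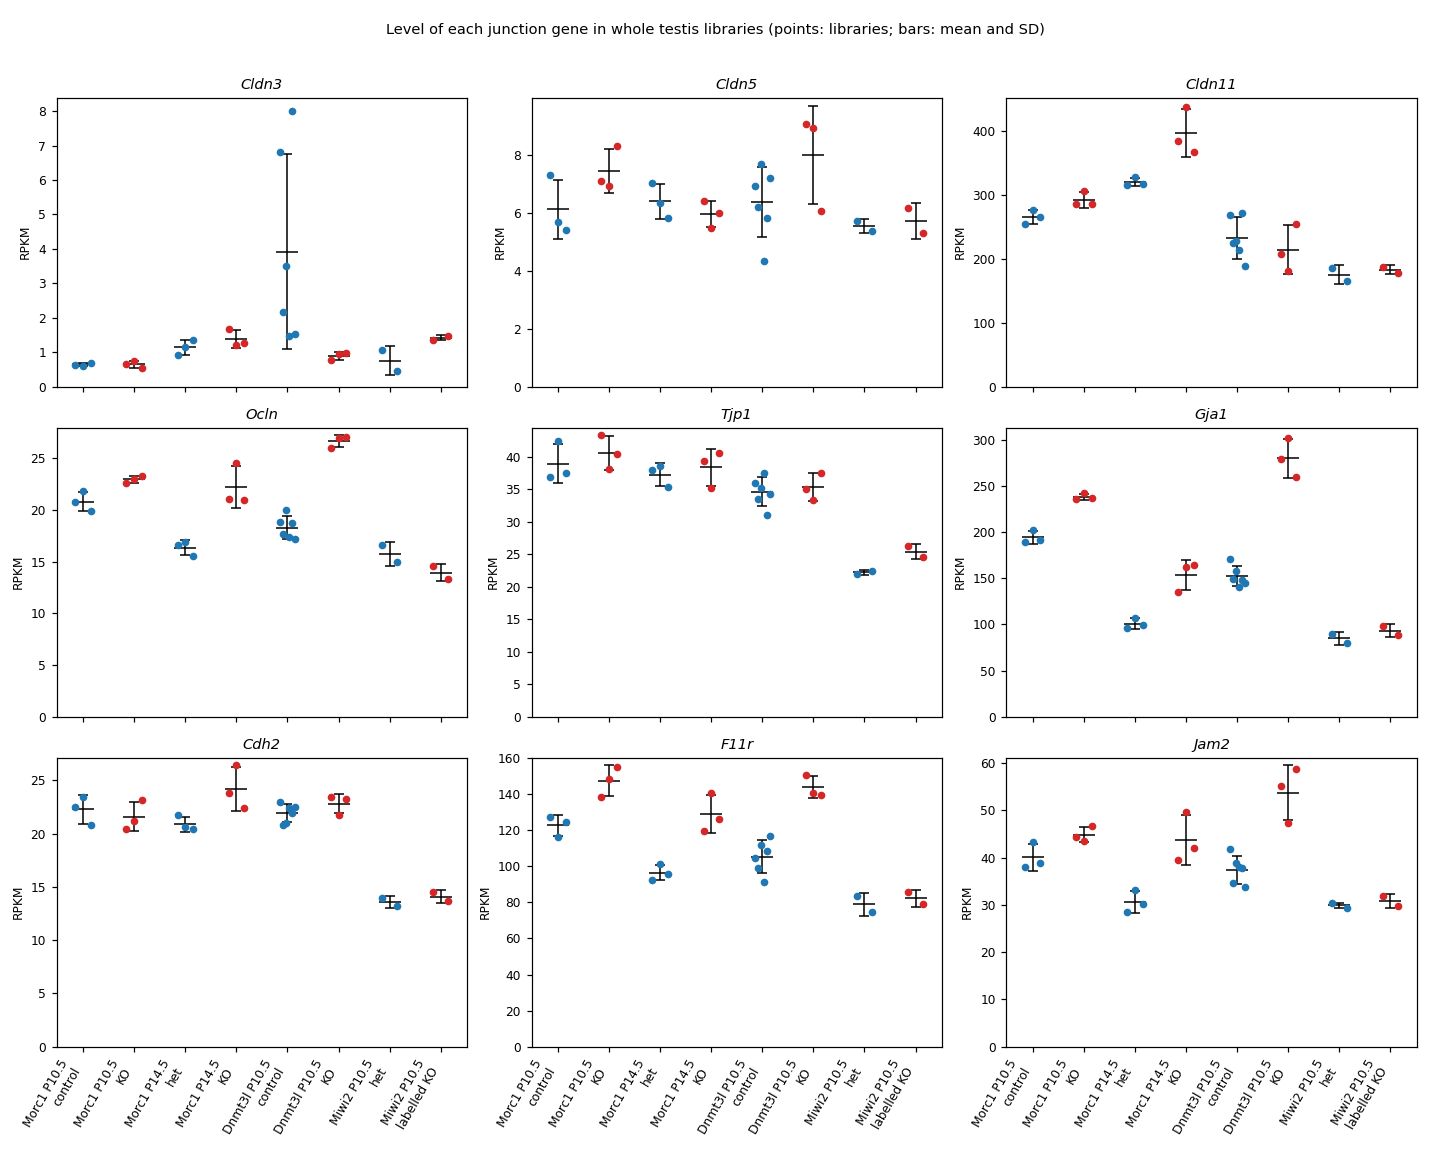
Level in RPKM (vertical axis, from 0) of each of the 9 junction genes in the whole testis libraries of the tests, by line, age and genotype (blue, controls; red, mutants), with each point a library and bars showing mean and SD. Gja1, Ocln, F11r and Jam2 sit higher in Dnmt3l KO than in every control of that line, and Cldn3 spreads from 1.46 to 8.01 RPKM in the Dnmt3l controls.

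In Morc1 tg/tg testes of P10.5, Gja1 and F11r were higher than in controls, and the other 7 genes did not pass the test. Calls were made at an adjusted p under 0.05 in edgeR's quasi-likelihood test, adjusted over all genes by the Benjamini-Hochberg method. The 2 calls of 9 stand beside 15.3% of all genes called in the same comparison. The median log2 fold change was 0.16 over the 9 genes and 0.01 over all genes tested.

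Gja1 was at 236, 242 and 237 RPKM in the mutants and at 189, 203 and 191 RPKM in the controls. The groups did not overlap, and the log2 fold change was 0.31 (SE 0.049, edgeR adjusted p = 0.00216). F11r was at 138, 148 and 155 RPKM in the mutants and at 127, 116 and 124 RPKM in the controls. These groups did not overlap either (log2 fold change 0.28, SE 0.058, edgeR adjusted p = 0.00921), but without mutant replicate 3 the adjusted p of F11r was 0.0607.

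Ocln, Jam2 and Cldn11 lay on the same side without a call. For Ocln, the mutants were at 22.6, 22.9 and 23.3 RPKM and the controls at 20.7, 21.8 and 19.9 RPKM (log2 fold change 0.16, edgeR adjusted p = 0.0733). Jam2 had a log2 fold change of 0.18 (adjusted p = 0.0789) and Cldn11 one of 0.15 (adjusted p = 0.0779) in edgeR. Without control replicate 2, a Morc1 tg/+ library, all 3 passed and the count was 5 of 9. Cldn5 passed only with the Morc1 tg/+ libraries alone as controls (log2 fold change 0.45, edgeR adjusted p = 0.0363), and in the full comparison it was at 0.30 (adjusted p = 0.125).

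Tjp1 and Cdh2 were not called. Tjp1 had a log2 fold change of 0.07 (SE 0.068) and Cdh2 one of -0.03 (SE 0.066). Cldn3 was at 0.531 to 0.736 RPKM in mutants and 0.606 to 0.695 RPKM in controls, a difference of -0.01 on the log2 scale.

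These changes stood beside changes in the markers of whole cell types. Of 11 Sertoli cell marker genes, 6 rose and none fell at P10.5, and their summed level was 4928 to 5526 RPKM in the mutants against 4554 to 4708 RPKM in the controls. Of 8 germ cell markers, 6 fell, and their sum was 220 to 251 RPKM against 349 to 359 RPKM. Of 7 macrophage markers 4 rose (median log2 fold change of the list 0.51, beside 0.19 for the Sertoli list), as did 2 of 7 Leydig and 2 of 8 endothelial markers, and their part in the values of the junction genes was not tested. In bulk tissue, fewer cells of a type and less RNA per cell cannot be told apart. Libraries were also scaled to the summed Sertoli marker reads, which put the median of all genes at -0.19 on the log2 scale. Gja1 was then at 0.11 (edgeR adjusted p = 0.214) and F11r at 0.07 (adjusted p = 0.451). Cdh2 was called lower at -0.23 (edgeR adjusted p = 0.023). Most of that sum came from Clu (53.2%) and Aard (16.7%), so this scaling leans on a pair of genes.

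At P14.5, Gja1, Jam2, Ocln, F11r, Cldn11 and Cdh2 were all higher in Morc1 tg/tg than in Morc1 tg/+ testes, 6 of 9 genes called and all upward, though with Sertoli scaling none of the 6 was called and Cldn11, Ocln, F11r and Cdh2 changed sign. In this comparison 34.8% of all genes tested were called. The median log2 fold change of the 9 genes was 0.32 beside 0.01 for all genes.

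Gja1 rose most, from 95.7, 107 and 99.8 RPKM in Morc1 tg/+ to 135, 162 and 164 RPKM in Morc1 tg/tg. All mutant libraries lay above all controls, with a log2 fold change of 0.62 (SE 0.089, edgeR adjusted p = 0.00118). Jam2, whose protein is a partner in adhesion between Sertoli and germ cells, was at 28.5, 33.1 and 30.1 RPKM in Morc1 tg/+ and at 39.5, 49.8 and 42.1 RPKM in Morc1 tg/tg. Again the groups were apart (0.53, SE 0.097, edgeR adjusted p = 0.00373).

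Ocln and F11r moved by similar amounts. Ocln was at 16.6, 16.9 and 15.5 RPKM in Morc1 tg/+ and at 21.1, 24.5 and 20.9 RPKM in Morc1 tg/tg (0.45, SE 0.077, edgeR adjusted p = 0.0026). F11r was at 92.5, 101 and 95.7 RPKM against 120, 141 and 126 RPKM (0.43, SE 0.075, edgeR adjusted p = 0.00297). Neither gene had a control library as high as its lowest mutant library.

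Cldn11 was at 315, 327 and 318 RPKM in Morc1 tg/+ and at 384, 438 and 366 RPKM in Morc1 tg/tg (0.32, SE 0.076, edgeR adjusted p = 0.012). Cdh2 showed the smallest rise, from 21.7, 20.6 and 20.4 RPKM to 23.8, 26.5 and 22.4 RPKM (0.22, SE 0.072, edgeR adjusted p = 0.0405). The groups did not overlap for Cldn11 or Cdh2, but the call for Cdh2 was lost without any of the 3 Morc1 tg/+ libraries (edgeR adjusted p = 0.0759, 0.105 and 0.107) and without mutant replicate 2 (adjusted p = 0.0748).

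Mutant replicate 2 was the highest of its group for Jam2, Ocln, F11r, Cldn11 and Cdh2, and its Sertoli marker sum was also the highest. Tjp1, Cldn5 and Cldn3 were not called. Tjp1 was at 37.9, 38.5 and 35.3 RPKM in Morc1 tg/+ and 39.4, 35.1 and 40.6 RPKM in Morc1 tg/tg, with overlapping libraries (log2 fold change 0.05, SE 0.062). Cldn5 had a log2 fold change of -0.09 (SE 0.112) and Cldn3 one of 0.28 (SE 0.224).

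All 11 Sertoli markers rose at P14.5, with a sum of 4920 to 6140 RPKM in Morc1 tg/tg against 3755 to 4200 RPKM in Morc1 tg/+. Germ cell markers fell (7 of 8), with a sum of 374 to 428 RPKM against 880 to 1140 RPKM. Scaling to the Sertoli markers put the median of all genes at -0.46. Gja1 was then at 0.14 (edgeR adjusted p = 0.264) and Jam2 at 0.05 (adjusted p = 0.712). Tjp1 (-0.41, edgeR adjusted p = 0.0139) and Cldn5 (-0.56, adjusted p = 0.0222) were called lower. Ocln, F11r, Cldn11 and Cdh2 lay at -0.03, -0.05, -0.16 and -0.26 in that setting.

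In Dnmt3l-/- testes of P10.5, Gja1, Ocln, Jam2 and F11r were higher and Cldn3 lower than in controls, 5 of 9 genes called, and with Sertoli scaling Gja1 alone of the 4 stayed called while F11r changed sign. In this comparison 53.9% of all genes tested were called. The median log2 fold change was 0.37 for the 9 genes and -0.0009 for all genes.

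Gja1 was at 279, 302 and 260 RPKM in Dnmt3l-/-, against a lowest, median and highest control of 141, 149 and 171 RPKM. No control came near the mutants, and the log2 fold change was 0.93 (SE 0.071, edgeR adjusted p = 1.14e-06), the largest called rise of the 9 genes in the 3 comparisons of Morc1 tg/tg or Dnmt3l-/- with control testes in the standard setting. Gja1 and Dnmt3l lie on the same chromosome, as given above, and whether sequence linked to the Dnmt3l allele bears on this value was not tested.

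Ocln was at 26, 26.9 and 27.1 RPKM in Dnmt3l-/- and at 17.2, 18.2 and 20.0 RPKM in the lowest, median and highest control. The mutants lay well above the controls, with a log2 fold change of 0.59 (SE 0.056, edgeR adjusted p = 5.44e-06). Jam2 was at 55.2, 47.4 and 58.7 RPKM against controls of 33.7, 37.9 and 41.9 RPKM (0.57, SE 0.08, edgeR adjusted p = 0.000103). F11r was at 151, 141 and 140 RPKM against controls of 91.1, 106.5 and 117 RPKM (0.49, SE 0.079, edgeR adjusted p = 0.000259). For all of these, every mutant lay above every control.

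Cldn11 did not follow them. Its mutant libraries were at 208, 181 and 255 RPKM and its controls at 188, 226 and 272 RPKM (lowest, median and highest), which overlapped throughout (log2 fold change -0.07, SE 0.121, edgeR adjusted p = 0.65). Tjp1 (0.07, SE 0.067) and Cdh2 (0.10, SE 0.057) were not called. Cldn5 was at 9.06, 8.93 and 6.05 RPKM in mutants and between 4.33 and 7.71 RPKM in controls (0.37, edgeR adjusted p = 0.0887), and without mutant replicate 3 it passed (0.55, adjusted p = 0.0173). Endothelial markers stood beside Cldn5 here, as 5 of 8 rose and their sum was 64.4 to 75.9 RPKM in mutants against 45.8 to 62.7 RPKM in controls, and their part in the level of Cldn5 was not tested.

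Cldn3, a claudin of barrier-forming tight junctions that is also common in epithelia outside the testis, was the only one of the 9 genes called lower in Morc1 tg/tg or Dnmt3l-/- testes against their controls in the standard setting. It was at 0.77, 0.958 and 0.967 RPKM in Dnmt3l-/-, from 40 to 58 reads a library. The controls ran from 1.46 to 8.01 RPKM with a median of 2.84 RPKM, from 59 to 364 reads. The groups did not overlap and the log2 fold change was -2.07 (SE 0.561, edgeR adjusted p = 0.00783).

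The libraries highest in Cldn3 were also high in the summed level of a list of epididymis and fat genes. The summed level of 6 epididymis and fat markers was 42.3, 11.3 and 17.5 RPKM in the 3 WT libraries, 5.52, 30.6 and 6.47 RPKM in the 3 Dnmt3l+/- libraries, and 8.65, 7.85 and 7.91 RPKM in Dnmt3l-/-. WT replicate 1 and Dnmt3l+/- replicate 2 led both this sum and Cldn3 (6.82 and 8.01 RPKM). Without the 4 control libraries whose sum was above that of every mutant (all WT libraries and Dnmt3l+/- replicate 2), Cldn3 was at -0.70 on the log2 scale (edgeR adjusted p = 0.0393). The controls left were Dnmt3l+/- replicates 1 and 3 only. The libraries that led Cldn3 were among those left out, so a smaller fall of Cldn3 follows in part from that choice. The same 4 genes as before were called higher in that setting, Gja1 at 1.02. In the Miwi2 line the sum was 16.1 to 30.3 RPKM with Cldn3 at 0.46 to 1.47 RPKM. Of the 6 genes, 3 passed the filter in Dnmt3l-/- against controls, and 1 of these was called lower and none higher. Their median log2 fold change was 0.12, so the genes of the list did not move together. The sum mixes genes of fat with genes of the epididymis, and the part of either tissue in the Cldn3 values was not tested.

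**Figure D2:**
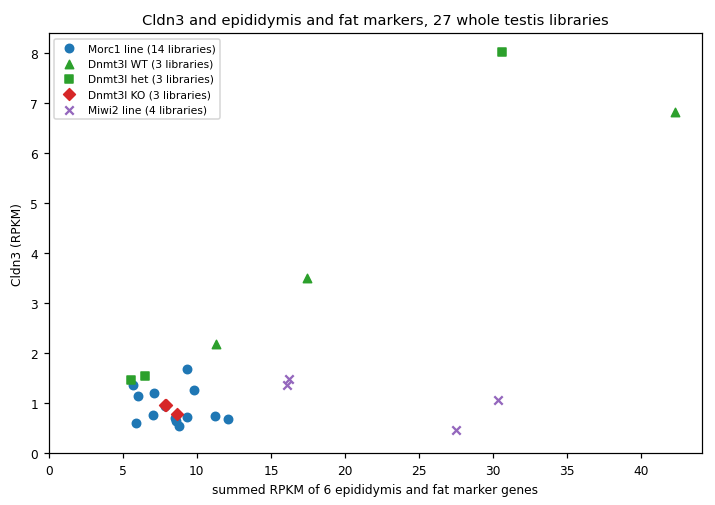
Cldn3 level in RPKM (vertical axis) against the summed RPKM of 6 epididymis and fat marker genes (horizontal axis) in the 27 whole testis libraries, each point a library, with shape and colour for line and genotype. The 2 libraries with the highest Cldn3, at 6.82 and 8.01 RPKM, have the highest marker sums, 42.3 and 30.6 RPKM, and the Miwi2 libraries have sums of 16.1 to 30.3 RPKM with Cldn3 at 0.46 to 1.47 RPKM.

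Sertoli markers were again higher in the mutants, with 10 of 11 called higher in Dnmt3l-/- and a sum of 5550 to 5944 RPKM against 3512 to 4609 RPKM. All 8 germ cell markers fell (164 to 201 RPKM in sum against 442 to 577 RPKM). Scaled to the Sertoli markers, with all genes shifted by -0.52 at the median, Gja1 remained higher at 0.42 (edgeR adjusted p = 0.000894). In the same setting Ocln was at 0.07 (adjusted p = 0.53), Jam2 at 0.05 (adjusted p = 0.708) and F11r at -0.02 (adjusted p = 0.875). Cldn11 (-0.58, adjusted p = 0.000167), Tjp1 (-0.45, adjusted p = 0.00254), Cdh2 (-0.42, adjusted p = 0.00232) and Cldn3 (-2.53, adjusted p = 4.24e-05) were then called lower.

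The controls of the Dnmt3l line gave a measure of background. Between Dnmt3l+/- and WT, none of the 9 genes was called by edgeR or by DESeq2, none had an unadjusted p under 0.05, and their log2 differences ran from -0.25 to 0.05. Gja1 was at 141, 149 and 145 RPKM in Dnmt3l+/- and 171, 149 and 158 RPKM in WT, the first all just below the second. In all, 0.00651% of genes were called (1 of 15370).

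In the libraries labelled Miwi2 KO, none of the 9 genes was called by edgeR, and 1.23% of all genes were called. DESeq2 called none of the 7 to which it gave an adjusted p (Cldn3 and Cldn5 had none). Of the 9 genes 3 had an unadjusted p under 0.05 in edgeR, as did 3229 of all 15997 genes tested. Cldn3 was at 1.37 and 1.47 RPKM in the libraries labelled KO and at 1.05 and 0.46 RPKM in those labelled het (log2 fold change 0.90, SE 0.309, edgeR adjusted p = 0.147). The groups were apart, but the value leaned on the het libraries, and without het replicate 1 it was 1.59 (edgeR adjusted p = 0.000641), a value for which the 1 het library left is assumed to vary like the other group. Gja1 was at 98.1 and 88.6 RPKM against 90 and 80.2 RPKM (0.12, SE 0.085), which overlapped.

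Ocln lay lower in the libraries labelled Miwi2 KO, at 14.53 and 13.3 RPKM against 16.6 and 14.9 RPKM, without a call (-0.20, SE 0.073, edgeR adjusted p = 0.172) unless het replicate 2 was left out (-0.27, adjusted p = 0.045), where the same assumption applies. Tjp1 was at 26.2 and 24.6 RPKM against 21.9 and 22.5 RPKM (0.18, SE 0.07, edgeR adjusted p = 0.195). F11r, Jam2, Cldn11, Cldn5 and Cdh2 had log2 fold changes of 0.03 to 0.04. The Sertoli marker sum was 2973 to 3064 RPKM in these libraries against 2756 to 3008 RPKM in the het libraries.

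**Figure D3:**
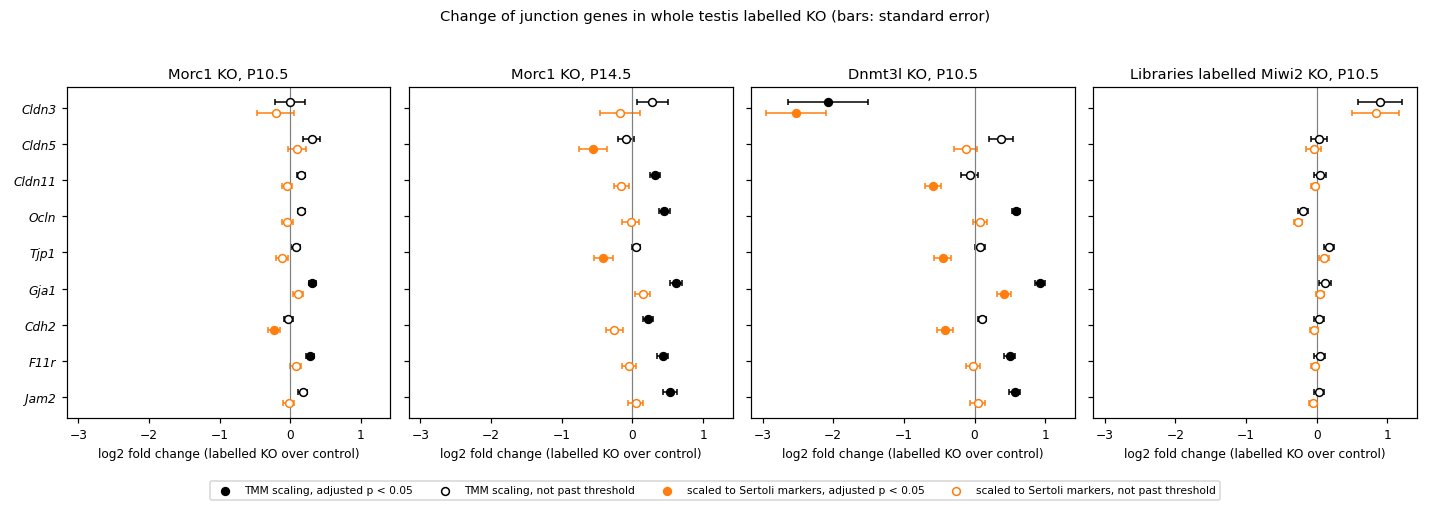
Log2 fold change of libraries labelled KO over their controls (horizontal axis, with standard error bars) of the 9 junction genes in 4 whole testis comparisons, with standard TMM scaling in black and scaling to Sertoli markers in orange, filled where the adjusted p is under 0.05. With Sertoli scaling only Gja1 in Dnmt3l KO, at 0.42, stays filled on the right of 0.

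The Dnmt3l and Morc1 effects at P10.5 were compared directly, as an interaction in 1 fit of 15 libraries, in which 17.6% of all genes differed. The rise was larger in Dnmt3l-/- than in Morc1 tg/tg for Gja1, by 0.67 (SE 0.096, edgeR adjusted p = 0.000207). The same held for Ocln, by 0.48 (SE 0.077, edgeR adjusted p = 0.000488), and for Jam2, by 0.44 (SE 0.111, edgeR adjusted p = 0.0132). The difference for Jam2 was lost without Dnmt3l-/- replicate 1 (0.36, adjusted p = 0.074). For F11r (0.27, adjusted p = 0.108) and Cldn3 (-2.02, SE 0.826, adjusted p = 0.0993) no difference was called, but both passed without Dnmt3l+/- replicate 3 (0.30, edgeR adjusted p = 0.0391, and -2.19, adjusted p = 0.0467).

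Cell type markers differed between the lines' effects too, with 7 of 11 Sertoli markers higher in the Dnmt3l effect than in the Morc1 effect (median 0.44), 7 of 8 germ cell markers lower (median -0.84) and 5 of 5 markers of differentiating spermatogonia lower (median -1.21), and their part was not tested. With Sertoli scaling, Gja1 was at 0.31 (edgeR adjusted p = 0.0601), Ocln at 0.12 (adjusted p = 0.48) and Jam2 at 0.07 (adjusted p = 0.723). In that setting Cldn11 (-0.53, adjusted p = 0.00906) and Cldn3 (-2.32, adjusted p = 0.013) were lower in the Dnmt3l effect than in the Morc1 effect. The lines of mice differed along with the mutated gene, and the 2 cannot be told apart.

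Between P10.5 and P14.5, control testes of the Morc1 line gained Cldn3 and Cldn11 and lost Gja1, Jam2, Ocln and F11r, and with Sertoli scaling the calls for Jam2, Ocln and F11r were lost. That was 6 of 9 genes in a comparison in which 58.8% of all genes were called. The control libraries of these days are those used in the mutant comparisons above.

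Gja1 fell from 189, 203 and 191 RPKM to 95.7, 107 and 99.8 RPKM, with no overlap (log2 fold change -0.95, SE 0.058, edgeR adjusted p = 1.83e-06). Cldn11 rose from 254, 277 and 266 RPKM to 315, 327 and 318 RPKM (0.26, SE 0.05, edgeR adjusted p = 0.00133). Cldn3 rose from 0.636, 0.606 and 0.695 RPKM to 0.93, 1.14 and 1.37 RPKM (0.82, SE 0.222, edgeR adjusted p = 0.00966). Every P14.5 control library lay above the P10.5 range for Cldn3 and Cldn11 and below it for Gja1.

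F11r fell by 0.35 (SE 0.052, edgeR adjusted p = 0.000259), Ocln fell by 0.35 (SE 0.057, edgeR adjusted p = 0.00047) and Jam2 fell by 0.40 (SE 0.073, edgeR adjusted p = 0.00106), all on the log2 scale. Tjp1 (-0.07), Cdh2 (-0.10) and Cldn5 (0.06) were not called. Over these days 9 of 11 Sertoli markers fell and 1 rose, while 7 of 8 germ cell markers rose. Sertoli scaling put the median of all genes at 0.25. The rises of Cldn3 (1.05, edgeR adjusted p = 0.000927) and Cldn11 (0.51, adjusted p = 7.28e-07) were still called. So was the fall of Gja1 (-0.71, edgeR adjusted p = 1.48e-09).

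In Morc1 tg/tg testes the same days brought the same calls for Cldn3 (1.11, SE 0.221, edgeR adjusted p = 0.00301), Cldn11 (0.44, SE 0.079, adjusted p = 0.00179) and Gja1 (-0.63, SE 0.085, adjusted p = 0.000326), with 4 of 9 genes called beside 41.0% of all genes. Gja1 went from 236, 242 and 237 RPKM to 135, 162 and 164 RPKM. Of 11 Sertoli markers 6 fell and 2 rose here, while 7 of 8 germ cell markers rose, and their part was not tested. Cldn5 was called lower at P14.5 (-0.33, SE 0.113, edgeR adjusted p = 0.0393), a call that was lost without mutant replicate 1 or 3 of P10.5 or replicate 2 or 3 of P14.5, and with Sertoli scaling (-0.35, adjusted p = 0.187). Of 8 endothelial markers 5 fell and none rose in the same testes. Their sum was 55.0 to 62.3 RPKM at P10.5 and 30.7 to 44.3 RPKM at P14.5. In controls 3 of the 8 fell and none rose, while Cldn5 was at 0.06 and not called. The control sum was 47.3 to 55.7 RPKM at P10.5 and 34.5 to 37.0 RPKM at P14.5. The part of these markers in the level of Cldn5 was not tested. Ocln (-0.05), Jam2 (-0.04) and F11r (-0.20) were not called in Morc1 tg/tg, although F11r passed without mutant replicate 2 of P14.5 (-0.27, edgeR adjusted p = 0.0159).

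Whether the mutation changed the course between the days was tested as an interaction over 12 libraries. No gene of the 9 was called by edgeR, beside 8.22% of all genes. Of the 9, 5 had an unadjusted p under 0.05 in edgeR, as did 3642 of all 15657 genes tested. DESeq2 called 2 of the 9, and 1659 of 16239 genes in all. The edgeR values were 0.30 for Gja1 (SE 0.108, adjusted p = 0.109), 0.28 for Ocln (SE 0.097, adjusted p = 0.0878) and 0.34 for Jam2 (SE 0.126, adjusted p = 0.118). Without mutant replicate 1 of P14.5, Gja1 (0.40, edgeR adjusted p = 0.00797), Ocln (0.33, adjusted p = 0.044) and Jam2 (0.42, adjusted p = 0.0376) all passed, and without mutant replicate 3 of P14.5 Ocln did (0.37, adjusted p = 0.045). Sertoli scaling put the median of all genes at -0.25. Gja1 was then at 0.04 (edgeR adjusted p = 0.856), Ocln at 0.02 (adjusted p = 0.939) and Jam2 at 0.07 (adjusted p = 0.715). For Jam2, Ocln and F11r, which were called between days in controls and not in Morc1 tg/tg, edgeR with its standard setting thus called no difference between the genotypes. With no filter on low counts it called Ocln (0.34, edgeR adjusted p = 0.0432) and Jam2 (0.39, adjusted p = 0.0497), and also Gja1 (0.35, adjusted p = 0.0421).

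**Figure D4:**
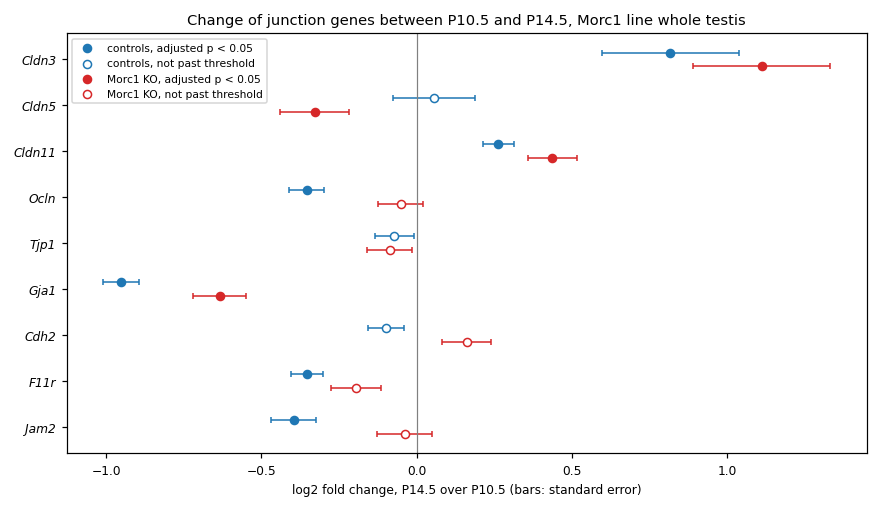
Log2 fold change of P14.5 over P10.5 (horizontal axis, with standard error bars) of the 9 junction genes in Morc1 control testes (blue) and Morc1 KO testes (red), filled where the adjusted p is under 0.05. Cldn3 and Cldn11 lie right of 0 and Gja1 left of 0 in both, at -0.95 in controls and -0.63 in Morc1 KO.

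A wider list of 70 other junction genes was counted in the same comparisons. At P10.5 in Morc1 tg/tg, 8 of 59 tested rose and 4 fell, beside 15.3% of all genes called, with a list median of 0.05. Lsr, of tricellular junctions, rose from 28.1 to 35.1 RPKM (0.33, SE 0.059, edgeR adjusted p = 0.00417), and Gjc1, which encodes connexin 45, fell from 11.4 to 9.50 RPKM (-0.25, edgeR adjusted p = 0.0129). At P14.5, 21 of 60 rose and 9 fell, beside 34.8% of all genes. Pvrl3, the nectin of the germ cell side of Sertoli-germ cell contacts, was lower in Morc1 tg/tg (4.46 to 2.71 RPKM, -0.71, edgeR adjusted p = 0.000369), and Itga6, an integrin subunit, was higher (33.0 to 46.5 RPKM, 0.51, adjusted p = 0.00158).

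In Dnmt3l-/-, 22 of 65 rose and 13 fell, with a median of 0.07, and the 35 calls stand beside 53.9% of all genes called. By kind, 10 of 17 adherens junction genes rose and none fell, 3 of 5 desmosome genes rose, and 4 of 7 gap junction genes fell. The tight junction kinds were mixed. Of 19 membrane protein genes 4 rose and 3 fell, and of 17 scaffold and polarity genes 5 rose and 6 fell. Of all 15665 genes tested, 3900 rose and 4539 fell. Each kind holds few genes, and the kinds were not tested as sets. Gjc1 fell from 14.9 to 7.61 RPKM (-0.92, SE 0.071, edgeR adjusted p = 1.24e-06). Tjp3, which encodes the scaffold ZO-3, fell from 1.21 to 0.298 RPKM (-1.97, SE 0.178, edgeR adjusted p = 3.85e-06), in contrast to Tjp1, which was not called. Dsp, the desmosomal plaque gene desmoplakin, rose from 1.33 to 3.60 RPKM (1.48, SE 0.321, edgeR adjusted p = 0.0021).

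In the libraries labelled Miwi2 KO, 2 of 62 rose, beside 1.23% of all genes called, namely Inadl, which encodes the scaffold PATJ (0.45, edgeR adjusted p = 0.016), and Cldn8 (1.92, adjusted p = 0.0115), whose mean level was below 1 RPKM in both groups. From P10.5 to P14.5 in controls, 12 of 61 rose and 32 fell, beside 58.8% of all genes. In Morc1 tg/tg over the same days, 8 of 58 rose and 26 fell, beside 41.0% of all genes. All 5 desmosome genes fell in controls, as did 4494 of all 15395 genes tested. All 5 fell in Morc1 tg/tg too, as did 3205 of all 15163 genes tested there. The interaction with day called 1 of the 5, Pkp4, at -0.39 (edgeR adjusted p = 0.00873). Cldn8 and Pkp4 were named after their values had been seen. In controls Cldn7 rose from 1.17 to 3.83 RPKM (1.69, edgeR adjusted p = 4.73e-05). Cdh11, a mesenchymal cadherin, fell there from 14.0 to 3.74 RPKM (-1.91, edgeR adjusted p = 1.08e-06).

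Sorted germ cells of P10.5 gave a contrast to whole testis, with all 9 genes different between Morc1 tg/+ sorted cells and Morc1 tg/+ testis, as were 77.7% of all genes tested. Tjp1 and Cldn3 were higher in the sorted cells and the other 7 lower. Library kit, RNA selection and cells differed together between these groups and cannot be told apart.

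Tjp1 was at 59, 57.9, 52.7 and 49.9 RPKM in the sorted cells and at 42.3 and 37.6 RPKM in the testes, 137% by the ratio of means (log2 difference 1.14, SE 0.088, edgeR adjusted p = 8.64e-09). Cldn3 was at 2.05, 1.66, 1.52 and 0.685 RPKM against 0.606 and 0.695 RPKM, from 13 to 43 reads a sorted library. Its groups overlapped, and the difference (1.86, SE 0.495, adjusted p = 0.003) was lost without testis replicate 2 (adjusted p = 0.0558), where the 1 testis library left is assumed to vary like the sorted ones. As ratios of mean RPKM, Cdh2 in sorted cells was at 40.9% of testis, Ocln at 14.1% and F11r at 11.9%. The fitted log2 differences, which rest on TMM scaling, were -0.61 for Cdh2, -2.14 for Ocln and -2.39 for F11r, so by the fit each was less far below testis than by the ratio of means.

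Gja1 was lowest in sorted cells relative to testis, at 1.16% by the same ratio (2.17, 1.77, 3.14 and 2.03 RPKM against 203 and 191 RPKM). Cldn5 was at 2.13% from 0 to 4 reads a library, Jam2 at 2.78% and Cldn11 at 4.66%. The Sertoli marker list as a whole was at 2.49%, with 9 of its 11 genes at 1.41% to 2.76%, Wt1 at 7.4% and Sox9 at 11.6%.

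Within sorted germ cells of P10.5, Ocln, F11r and Tjp1 were higher and Cdh2 and Cldn11 lower in Morc1 tg/tg than in Morc1 tg/+, 5 of 8 genes tested beside 12.2% of all genes. Ocln was at 4.39, 5.51 and 6.24 RPKM in Morc1 tg/tg and at 3.05, 3.62, 2.99 and 2.11 RPKM in Morc1 tg/+ (0.79, SE 0.161, edgeR adjusted p = 0.00163). The groups did not overlap. Scaling to the Sertoli markers, added after the values were seen, put the median of all genes at 0.65 on the log2 scale. A call kept or lost under it follows in part from this shift. Ocln was then at 1.41 (edgeR adjusted p = 0.0124) and none of the other 4 was called.

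Cdh2 was at 4.67, 6.31 and 5.64 RPKM in Morc1 tg/tg and at 10.6, 8.13, 9.38 and 8.14 RPKM in Morc1 tg/+, with no overlap (-0.79, SE 0.113, edgeR adjusted p = 3.19e-05). Cldn11 was at 6.08, 9.84 and 5.6 RPKM against 10.9, 9.92, 15.4 and 14.3 RPKM, again all lower (-0.90, SE 0.173, edgeR adjusted p = 0.000898). The Sertoli marker sum moved with them in part, at 58.6, 123 and 62.0 RPKM in Morc1 tg/tg against 100.2, 91.2, 153 and 117 RPKM, 3 of 11 markers being called lower. Scaled to these markers, Cldn11 was at -0.30 (adjusted p = 0.504) and Cdh2 at -0.17 (adjusted p = 0.72).

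F11r was at 18, 19.9 and 18 RPKM against 13.3, 15.3, 14.4 and 14.4 RPKM (0.30, SE 0.099, edgeR adjusted p = 0.0494), and its call was lost with RLE scaling (adjusted p = 0.0558), with no filter (adjusted p = 0.0505) and without any single library other than control replicate 2 (adjusted p = 0.0801 to 0.19). Tjp1 was at 62.8, 78.7 and 69.8 RPKM against 59, 57.9, 52.7 and 49.9 RPKM (0.28, SE 0.073, edgeR adjusted p = 0.0109), and its call was lost without mutant replicate 2, control replicate 3 or control replicate 4. Neither gene's groups overlapped. With Sertoli scaling F11r was at 0.94 (SE 0.365) and Tjp1 at 0.89 (SE 0.348), each with an edgeR adjusted p of 0.093. Gja1 (-0.15), Jam2 (-0.34) and Cldn3 (-0.59) were not called.

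Markers of germ cell stages also differed between these sorted groups. Of 7 markers of undifferentiated spermatogonia 5 were higher in Morc1 tg/tg, with a sum of 169 to 202 RPKM against 128 to 135 RPKM in Morc1 tg/+. Of 8 early meiosis markers 6 were lower (137 to 145 RPKM against 169 to 192 RPKM), as were 3 of 5 markers of differentiating spermatogonia (91.3 to 108 RPKM against 134 to 162 RPKM). Their part in the values of the junction genes was not tested.

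At the earlier stages, which were described without a test, Tjp1 was the most abundant of the 9 genes in every sorted library. Its level was 48.4 and 63.4 RPKM in Morc1 tg/+ germ cells of E16.5, 76 and 72 RPKM at E18.5, and 105, 115 and 127 RPKM at P2.5. F11r in Morc1 tg/+ was at 40.3, 24.8 and 31.6 RPKM at P2.5, above its P10.5 level in each library. Ocln was likewise at 12.5, 7.4 and 8.53 RPKM at P2.5. Cldn11 stayed between 0.107 and 3.51 RPKM in all sorted libraries before P10.5, and Gja1 between 0.788 and 4.11 RPKM in all sorted libraries. The sort differed between P10.5 and the earlier stages, so stage and sort cannot be told apart.

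**Figure D5:**
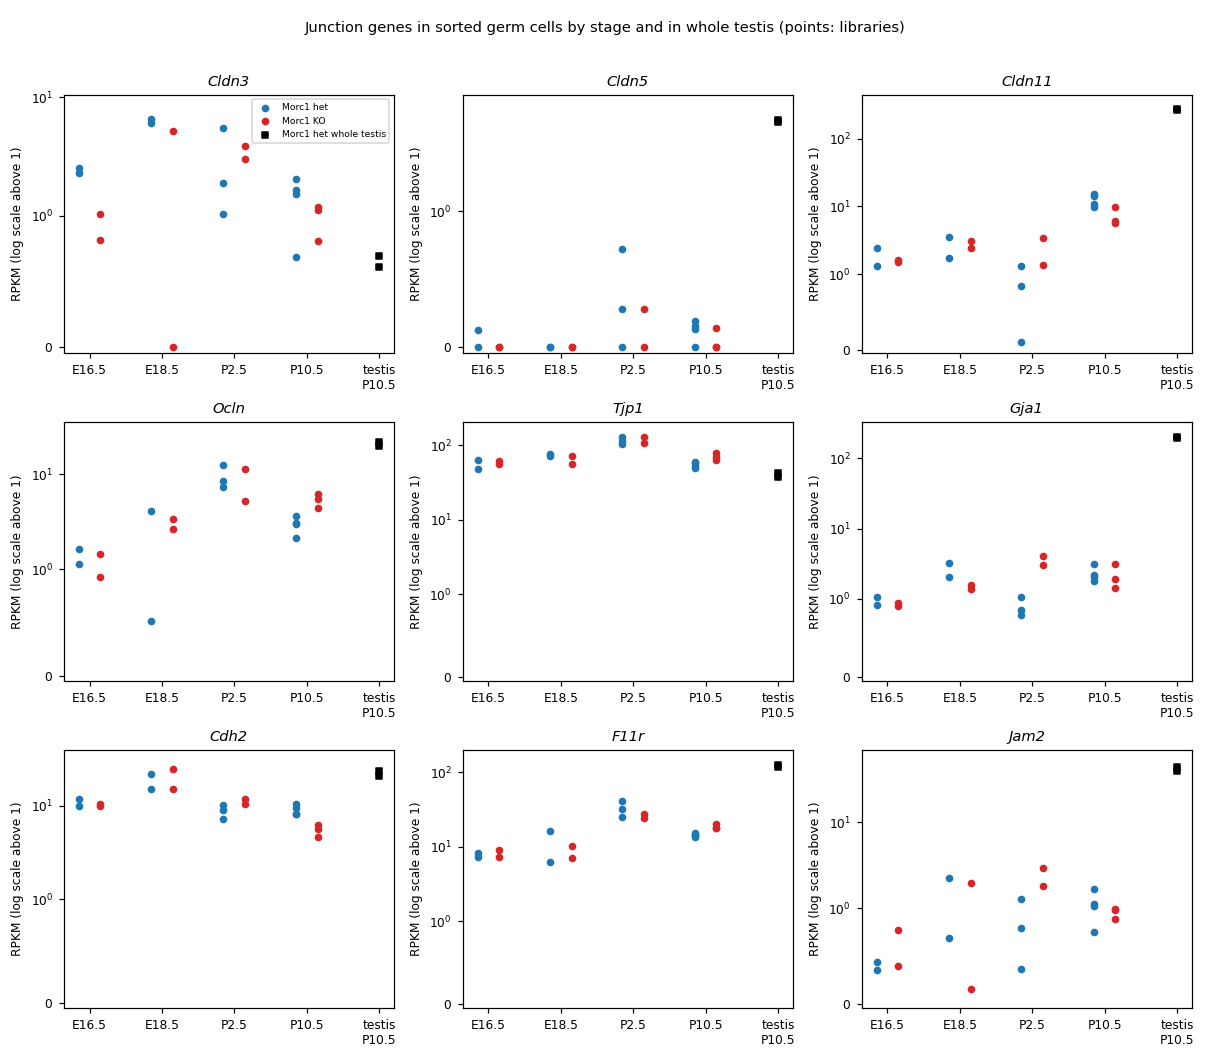
Level in RPKM (vertical axis, linear up to 1 and logarithmic above) of the 9 junction genes in sorted germ cells by stage (blue, Morc1 het; red, Morc1 KO) and in Morc1 het whole testis of P10.5 (black squares), each point a library. Tjp1 lies above its testis level at every stage, whereas Gja1, Jam2 and Cldn5 stay far below theirs.

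For each of the 9 genes, the genes closest in pattern over the 27 testis libraries were found by the root mean square difference of centred log2(RPKM + 1), among 12557 genes with a mean of at least 1 RPKM. Ocln was nearest to Scrn1 (0.08) and Zadh2 (0.09), F11r to Zadh2 (0.08), and Jam2 to Pcyt1b (0.09) and to Ocln itself (0.10). Cldn11 was nearest to Clstn1 (0.09) and Amhr2 (0.10), the receptor of anti-Müllerian hormone. Cldn5 was nearest to Mmrn2 (0.11), an endothelial gene, and to Grn (0.13). Gja1 was nearest to Tbc1d30 (0.12), Tjp1 to Hipk3 (0.07) and Cdh2 to Slc39a6 (0.08). Cldn3 had the largest distances, its nearest being Ly6a at 0.38 and Cdh16 at 0.40. The distances were not scaled to a gene's own spread. As the root mean square of the centred values, that spread was 0.63 for Cldn3, 0.53 for Gja1 and 0.21 for Cldn5.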

How the data were processed

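RNA was measured by sequencing in 27 whole testis libraries (TruSeq v2, poly(A) RNA) and 20 sorted germ cell libraries (Ovation FFPE kit, RNA depleted of ribosomal RNA), 1 mouse each. The authors trimmed reads to 50 bp, removed ribosomal RNA, kept reads mapping to 1 place in mm9 and deposited, for each gene, the raw count from HTSeq and an RPKM value, normalized to exon length and mapping reads. HTSeq and Bowtie are named in the submitters' processing notes, without versions. The authors' own test was DESeq.

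Here, counts were tested with edgeR 4.0.16 in R 4.3.3 (TMM factors, filterByExpr, quasi-likelihood F test), adjusted over all genes with a threshold of 0.05. The standard errors (SE) given with edgeR values are approximate, as the absolute log2 fold change divided by the square root of the F statistic. RPKM was used for levels. DESeq2 1.42.0, RLE factors, no filter, each library left out, a replicate block, controls of 1 genotype only, the preliminary libraries added with a batch term and scaling to Sertoli marker counts were alternatives. The Sertoli scaling of the interactions and of sorted cells, and the comparison without 4 Dnmt3l controls, were added after the data were seen. The procedure was tested on simulated data. Named genes were the 9 genes, the targeted genes, marker genes and, of the junction list, up to 3 rises and 3 falls with the largest change among those with a mean of at least 1 RPKM in a group. Members and lists were chosen with earlier results of these data known. Small RNA, bisulfite, chromatin and accessibility data were not analysed here. P-values set a difference between groups against the spread between mice of a group, as the fit estimates it. In the Morc1 and Dnmt3l tests of P10.5, the control group pooled heterozygous and WT mice. Whether libraries of the groups overlapped was recorded for the 9 genes and not for all genes, so non-overlap has no background share here.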

Additional observations from a re-analysis of the deposited data

Results flagged for a closer look

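The effect of losing DNMT3L on junction genes differed from that of losing MORC1 at P10.5 by a test of the difference itself, the interaction term in edgeR, for 3 of the 9 genes. Gja1 differed by 0.67 on the log2 scale, Ocln by 0.48 and Jam2 by 0.44, each rising more in Dnmt3l-/- testes. The call for Jam2 was lost without Dnmt3l-/- replicate 1, and none of the 3 was called with Sertoli scaling. Dixon's test was run in the Dnmt3l control testes and the Morc1 tg/+ sorted cells of P10.5 only, and smaller groups were not tested. No library stood apart in the 18 combinations of gene and group that were tested.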

How the results depend on the processing

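Of 1237 recomputed log2 fold changes of the 9 genes, 1160 stayed on their side of the threshold with no called value changing sign, and 65 of these, called in neither setting, did change sign. A further 40 lost and 29 gained a call, and 8 reversed, all 8 under Sertoli scaling. Reversed means an opposite sign with a call in at least 1 of the settings compared. Over all genes at P14.5, that scaling called 70 higher and 8571 lower, against 2257 and 3066 in the standard setting. In Dnmt3l-/- it called 258 higher and 10501 lower, against 3900 and 4539. Without Sertoli scaling, 1101 of 1148 stayed on their side, 40 of them uncalled with a change of sign, and none reversed. The reversed values were, at P14.5 in Morc1 tg/tg, -0.16 for Cldn11, -0.028 for Ocln, -0.41 for Tjp1, -0.26 for Cdh2 and -0.048 for F11r, and in Dnmt3l-/- -0.45 for Tjp1, -0.42 for Cdh2 and -0.019 for F11r. Under Sertoli scaling the number of the 9 genes called was 1 in Morc1 tg/tg at P10.5 (2 in the standard setting), 2 at P14.5 (6), 3 between days in controls (6) and 1 in sorted cells (5). For the interaction of mutation and day, which called 0 in the standard setting, DESeq2 called 2 and no filter called 3. Leaving out 1 library at a time gave 1 to 5 in Morc1 tg/tg at P10.5, 0 to 1 in the libraries labelled Miwi2 KO, 0 to 3 for the interaction with day, 2 to 5 for the Dnmt3l effect minus the Morc1 effect and 3 to 5 in sorted cells. Where a call rests on few mice, 1 library could end it, as given beside each result. Few reads limit Cldn3 in most testis libraries and Cldn5 in sorted cells.

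Shared replicate numbers did not mark paired samples by the labels, and in each comparison with 3 or more pairs at least 1 same-numbered pair had a correlation of deviations at or below 0.1. With a replicate block, the number of the 9 genes called was 2 in Morc1 tg/tg at P10.5, 5 at P14.5, 5 in Dnmt3l-/-, 5 between days in Morc1 tg/tg, 5 in sorted cells and 3 in the libraries labelled Miwi2 KO, where 2 rose (Cldn3 and Tjp1) and 1 fell (Ocln). The count of all genes called changed from 2326 to 1200 at P10.5 and from 197 to 4503 in the Miwi2 line under that block. Over all genes, Sertoli scaling called 5465 at P10.5, 8641 against 5323 at P14.5, 579 in the Miwi2 line, 3247 against 6212 between days in Morc1 tg/tg, 4697 against 2797 for the Dnmt3l effect minus the Morc1 effect and 391 against 1712 in sorted cells. DESeq2 called 391 in the Miwi2 line, and 5348 against 8439 were called in Dnmt3l-/- without the 4 controls. Leaving out a library gave 922 to 2352 at P10.5, 3517 to 5001 at P14.5, 340 to 952 in the Miwi2 line, 772 to 1746 for the interaction with day (1287 in full) and 1753 to 4021 for the Dnmt3l effect minus the Morc1 effect. Between Dnmt3l+/- and WT, counts were 0 to 2 in every setting.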
